A study of Drosophila melanogaster with 3 samples.

Results

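Insensitive (Insv) is a Drosophila nuclear protein with a BEN domain, and the regions described here are weak but shared Insv regions that fall below the list of peaks called reproducible by the authors. There were 1296 such member regions at 1184 separate loci, out of 30000 regions in the relaxed list of the pooled replicates on the dm6 genome build. Members were selected on the authors' signal value, the score that the peak caller gives a region. A member ranked from 4754 to 10000 by signal in the pooled list, overlapped no peak that passed the irreproducible discovery rate (IDR) test, and had its summit inside one of the 10000 highest regions of each of the 3 replicate lists. IDR is a test that compares the order of peaks between replicates. Chromatin immunoprecipitation followed by sequencing (ChIP-seq) was done with an anti-GFP antibody on whole embryos of both sexes, pooled, 0 to 24 h old, of the strain insv-GFP. This transgenic line stably expresses insv with a GFP at its C-terminal end, and the single group held 3 biological replicates. All embryos carried the fusion protein, all tissues and stages of embryogenesis were mixed, and untagged embryos were not analysed here. The depth behind each list is unknown, and the precision rests on 3 lists that may share more than their label.

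BEN-domain proteins contact DNA directly, and Insv binds a palindrome. Insv acts as a corepressor of Notch target genes during the choice of neural fates and is also found with insulator proteins. Elba1, Elba2 and Elba3 form a related complex that binds an asymmetric sequence close to that palindrome. M1BP and DREF are DNA-binding proteins of housekeeping promoters, BEAF-32 marks boundaries between genes, and GAGA factor binds GA repeats at developmental promoters.

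The sequences below show what lay under member summits. A site counts when all its bases are at most 50 bp from the summit, on either strand. The Insv core palindrome is CCAATTGG, and the degenerate Insv site extends it while allowing variants; both forms overlap, and an Insv site here means either of them. The Elba site is CCAATAAG, the M1BP site GGTCACAC and the DREF site TATCGATA, which contains the BEAF-32 core CGATA. The windows reach 50 bp to each side of the summit on the forward strand of the RefSeq Release 6 sequence of the fly genome, with the site in capitals. They are high-ranked members with each site, shown because the results on sequence turn on these sites. CG14397 (chr2L:21092859-21092959, in an intron, pooled rank 4950) has the core palindrome 1.5 bp from the summit. Ir92a, an ionotropic receptor gene, is the nearest gene of an intergenic member (chr3R:20348284-20348384, rank 4965) whose site matches both forms. CoRest, a corepressor gene, has the degenerate site in an intron (chrX:19525856-19525956, rank 4860), and lncRNA:CR43969 is nearest to an intergenic member (chr3L:401284-401384, rank 5156) that matches both forms.
CG14397: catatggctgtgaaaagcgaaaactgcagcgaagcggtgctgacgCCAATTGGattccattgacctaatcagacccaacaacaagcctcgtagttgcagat
Ir92a: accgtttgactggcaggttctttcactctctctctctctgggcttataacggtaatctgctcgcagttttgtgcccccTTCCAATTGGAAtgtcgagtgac
CoRest: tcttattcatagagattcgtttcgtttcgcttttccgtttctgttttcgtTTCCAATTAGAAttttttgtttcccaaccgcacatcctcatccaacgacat
lncRNA:CR43969: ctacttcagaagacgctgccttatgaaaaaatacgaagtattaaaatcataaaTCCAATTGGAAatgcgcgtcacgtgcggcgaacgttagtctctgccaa

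Members with the sites of other proteins are shown for comparison. Rph, the rabphilin gene, has an Elba site on the reverse strand at its promoter (chrX:10757746-10757846, rank 5309). CG6689 (chr3R:11220060-11220160, rank 4936) and asRNA:CR44291 (chr3R:8563825-8563925, rank 4844) have an M1BP site on the reverse strand, more than 40 bp from the summit, as the offsets of −45.5 and −43.5 bp show. CR14117 (chr3L:13008158-13008258, rank 4874) and slgA, which encodes proline dehydrogenase (chrX:21373882-21373982, rank 4928), have a DREF site. All 5 summits lay within 130 bp of a transcription start site (TSS).
Rph: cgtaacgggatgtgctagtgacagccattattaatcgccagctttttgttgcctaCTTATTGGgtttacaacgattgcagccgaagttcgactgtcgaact
CG6689: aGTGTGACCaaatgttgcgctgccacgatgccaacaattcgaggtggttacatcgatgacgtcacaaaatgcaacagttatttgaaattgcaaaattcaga
asRNA:CR44291: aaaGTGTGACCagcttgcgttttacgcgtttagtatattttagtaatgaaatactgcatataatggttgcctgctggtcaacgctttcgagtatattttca
CR14117: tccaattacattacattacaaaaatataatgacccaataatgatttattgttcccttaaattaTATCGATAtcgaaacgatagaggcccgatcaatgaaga
slgA: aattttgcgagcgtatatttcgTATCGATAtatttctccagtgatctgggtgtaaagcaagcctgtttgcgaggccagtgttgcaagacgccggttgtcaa

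The first question was how the replicates shared the weaker regions. Of the 5247 regions in the rank range, 803 overlapped an IDR peak and were set aside. Of the remaining 4444, 1 on the Y chromosome was left out, 1296 were held by all 3 replicates, 2071 by 2, 982 by 1 and 94 by none. Members were thus 29.2% of the regions of the range without IDR overlap, and the 3147 that fewer replicates held are called the others below. Of all regions of the range without IDR overlap, replicate 2 held 3305, replicate 3 held 2932 and replicate 1 held 2775. Among the regions held by 2 replicates, 935 were missing in replicate 1, 726 in replicate 3 and 410 in replicate 2. These counts follow from the rule and describe it, with no test.

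Sharing fell steeply along the pooled list. From rank 4754 to 6000, 678 of 1008 regions (67.3%) were members, and from 9001 to 10000, 40 of 878 (4.56%). The shares in between were 38.4%, 22.1% and 7.87%. The median pooled rank was 5926 for members and 8073 for the others, so any trait that varies with signal also differs between them. The 13 contrasts of members with the others were therefore also computed within these 5 bins of rank. In the pooled list the DREF site alone kept an interval above 0 (0.164 to 2.79), without adjustment for the 13 contrasts. In the lists of single replicates, binned by their own rank, the promoter difference did so in replicates 1, 2 and 3. There the Insv and DREF site differences did so in replicates 1 and 3. Bins of a replicate's own rank do not match pooled rank, so shared and unshared regions there can still differ in pooled signal. Distances to a TSS and the lists of genes are not matched for rank.

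**Figure D1:**
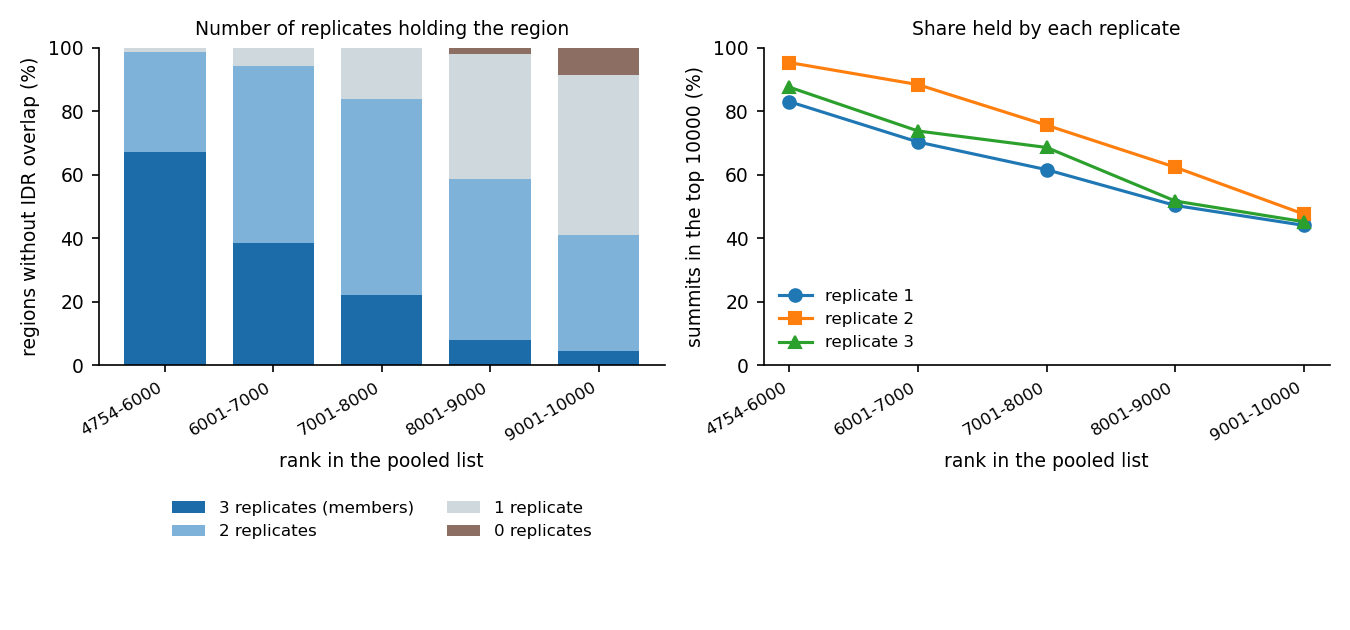
Sharing along the pooled list: the left panel stacks, for each bin of pooled rank (x axis), the percentage of regions without IDR overlap held by 3, 2, 1 or 0 replicates, and the right panel gives the percentage of summits inside the 10000 highest regions of each replicate. The member share falls from 67.3% to 4.56% of regions, and replicate 2 holds most in each bin.

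At the edges of the rule the signal changed little. The pooled signal was 221.5 at rank 4753 and 221.4 at rank 4754, and it was 117.4 at ranks 10000 and 10001. At rank 10000 the replicate lists had signals of 34.27, 51.93 and 46.5 in replicates 1, 2 and 3, with q-values of 0.103, 0.00355 and 0.0181. The scale of the signal is not stated, so values of different lists are not compared. The strongest member, at rank 4756, lay in an exon, 603 bp from the nearest TSS, that of lncRNA:CR32218 (chr3L:19896739-19897248). Its summit was inside the annotated spans of Mi-2, a chromatin remodeller, and Su(Tpl), an elongation factor gene. The weakest member, at rank 9964, lay 57 bp from a TSS of Tip60, a histone acetyltransferase (chrX:4117130-4117639).

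Member ranks in the replicates were spread over most of the allowed range. The median rank was 6046.5 in replicate 1, with a range of 1374 to 10000, 6562 in replicate 2, with a range of 2180 to 9999, and 6595.5 in replicate 3, with a range of 2126 to 9991. No replicate placed 702 members (54.2%) among its 4753 highest regions, as many as there were IDR peaks. One replicate did so for 509 members, 2 for 80 and all 3 for 5. The rule required a summit to lie inside a replicate region, which limits how far the replicate's own summit can be. The median shift was 32, 35 and 40 bp in replicates 1, 2 and 3, and for 61.0%, 64.3% and 59.7% of members it was at most 50 bp. It was 19, 20 and 23 bp for IDR peaks, and 25, 32 and 37 bp for the others that a replicate list held, so members were not closer than either.

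All 1296 members had a q-value below 0.05 in the pooled list, where 41.7% of all regions did. In replicate 1, 1082 members (83.5%) had such a q-value, against 28.1% of that list. In replicates 2 and 3 all members did, against 46.5% and 40.6% of those lists. The rule fixes most of these counts through the ranks, and nothing is read from them. The 214 members above 0.05 were so in replicate 1 alone, the list with the fewest regions below 0.05.

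The next question was where members lay relative to genes. Most were at promoters: 732 summits (56.5%, Wilson 95% interval 53.8 to 59.2%) had a TSS no more than 500 bp away, 372 (28.7%) were in introns, 132 (10.2%) were intergenic and 60 (4.63%) were in exons. The intervals cover counting error only. The promoter share was 65.6% for IDR peaks, 49.2% for the others of the rank range and 20.2% for 14491 low-ranked regions. Low-ranked regions are those in the lower-ranked 50% of the pooled list, without IDR overlap, and none of them had a q-value below 0.05. Members lay a median of 288 bp from a TSS, compared with 200 bp for IDR peaks, 540 bp for the others and 1882 bp for low-ranked regions.

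Members exceeded the others of the rank range by 7.26 percentage points (95% Newcombe interval 4.03 to 10.5). Within bins of pooled rank this difference was 0.232 points (interval −3.53 to 4). By bin, the member and other shares were 60.8% and 60.0% from rank 4754 to 6000, 53.9% and 56.3% to rank 7000, 46.6% and 50.2% to rank 8000, and 47.1% and 46.5% to rank 9000. In the last bin, 27 of 40 members (67.5%) were at promoters against 42.5% of the others. In the pooled list, then, the difference between members and others of like rank was within counting error over the 5 bins together.

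In the lists of single replicates the difference was larger. The same rule was applied there to the regions of a replicate ranked 4754 to 10000 in its own list, without IDR overlap, that both other replicates held. Shared and unshared regions were at promoters in 54.1% and 36.5% of cases in replicate 1, in 56.3% and 48.95% in replicate 2, and in 56.1% and 41.3% in replicate 3. The difference was 13.2 ± 5.29 points (SD, n = 3) and was positive in 3 of 3 replicates. The exact two-sided sign-flip permutation test gave p = 0.25, the smallest that 3 replicates allow, so this design cannot reach 0.05. The adjusted p was 0.325 by the Benjamini-Hochberg method over the 13 contrasts tested by this exact permutation test. Within bins of a replicate's own rank the differences were 15.9 (12.3 to 19.5), 4.79 (1.31 to 8.26) and 13 points (9.43 to 16.5). These bins leave pooled rank unmatched, so they do not separate sharing from pooled signal. The 3 lists are not independent, since each is matched to the other two and the IDR list draws on all of them.

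**Figure D2:**
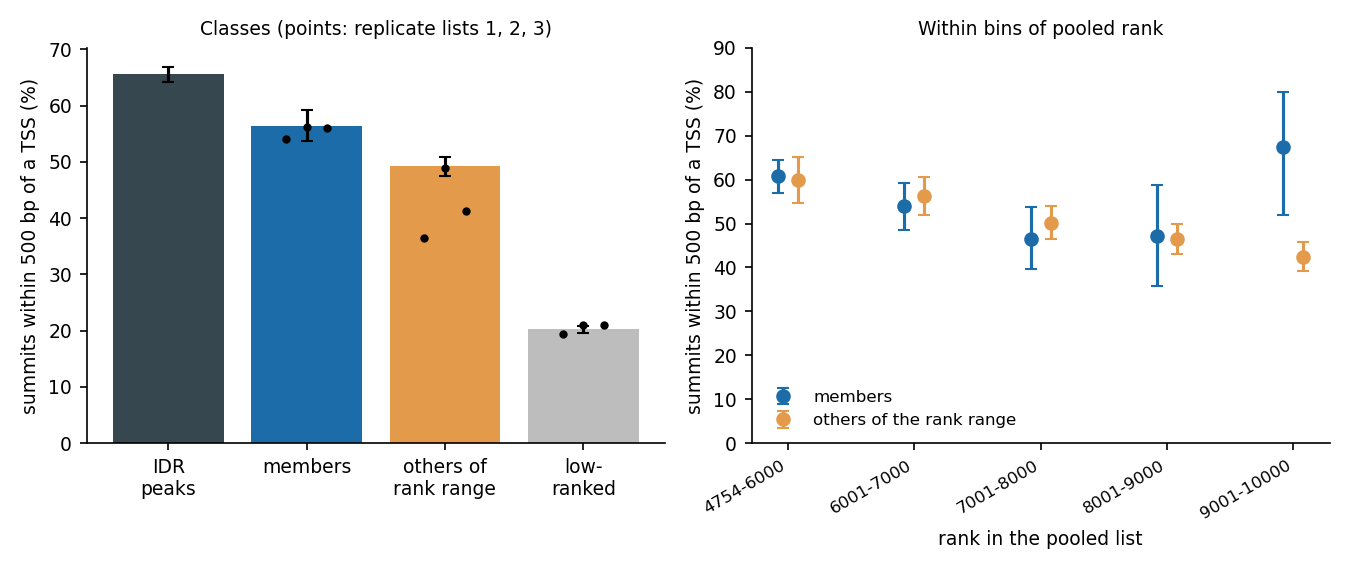
Promoter share of summits: the left panel gives the percentage within 500 bp of a TSS for 4 classes of pooled regions (bars, with Wilson 95% intervals) and for the replicate lists (points), and the right panel gives members and others in 5 bins of pooled rank with the same intervals. Members (56.5%) lie between IDR peaks (65.6%) and the others (49.2%), and the intervals of members and others overlap in all bins but the last.

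Against the 1296 weakest IDR peaks, the last ones above the IDR cut-off, the promoter share of members was lower by 8.64 points (members minus weakest IDR peaks −8.64, 95% interval −12.4 to −4.89). These peaks were at promoters in 65.1% of cases, and the members at ranks 4754 to 6000 in 60.8%. Differences from these peaks, here and below, are not matched for rank, since all of them rank above the members. Members at promoters also lay less often than these peaks near a pair of genes that start in opposite directions. Of the 732 member promoter summits, 195 (26.6%, 23.6 to 29.96%) had such a divergent pair of protein-coding TSSs within 500 bp, against 35.9% of the weakest IDR peaks and 21.4% of the others. Members minus weakest IDR peaks was −9.26 points (−13.8 to −4.68), and members minus others 5.21 points (1.48 to 9.07), or 2.46 within bins of rank (−1.99 to 6.92). In the replicates the difference from the others was 8.11 ± 2.54 points (SD, n = 3; exact sign-flip permutation p = 0.25, adjusted 0.325).

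Member promoter summits sat just upstream of the start. Their median position relative to the TSS was −38.5 bp, and 492 of 732 (67.2%) were upstream. The 100 bp before the TSS held 277 of them (37.8%) and the 100 bp after it 137 (18.7%). The median position was −58 bp for IDR peaks and −37 bp for the others.

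**Figure D3:**
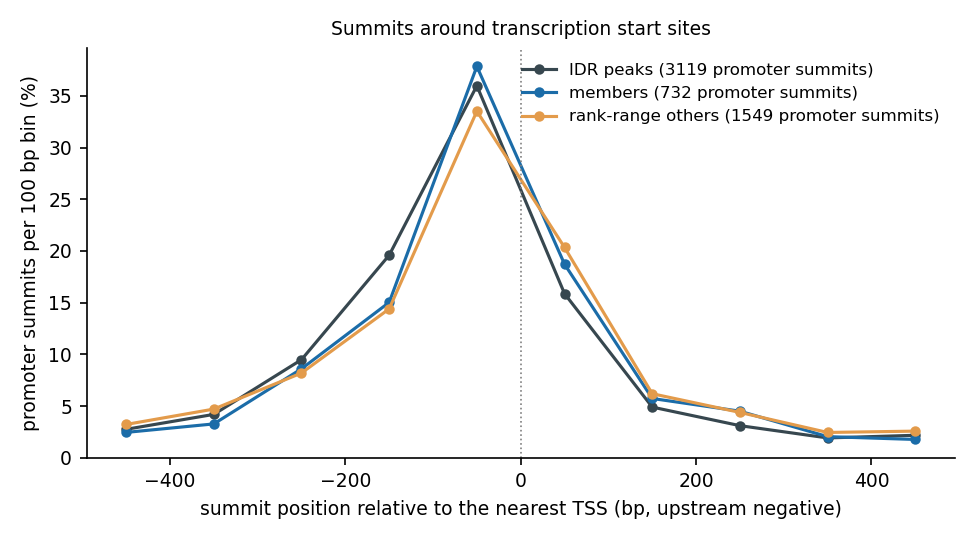
Position of promoter summits relative to the nearest TSS (x axis in bp, upstream negative) as a percentage of promoter summits per 100 bp bin, for IDR peaks, members and the others of the rank range. All 3 curves have their maximum in the 100 bp upstream of the TSS, at 37.8% for members, 36.0% for IDR peaks and 33.5% for the others.

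The nearest TSS of 688 of the 732 promoter members (94.0%) belonged to a protein-coding gene and that of 34 (4.64%) to a noncoding RNA, while tRNA and snoRNA genes had 3 each and snRNA genes 2. The same protein-coding share was 94.97% for IDR peaks and 83.5% for low-ranked regions. Members were spread evenly over the large chromosome arms, from 9.38 per Mb on 3R to 10.1 per Mb on 3L, with 7 members or 5.19 per Mb on chromosome 4. The GC content of the 501 bp around the summit had a median of 40.3% for members, 40.1% for IDR peaks and 42.7% for low-ranked regions. The median distance from a member to the nearest IDR summit was 5500.5 bp, and 75 members (5.79%) were within 1000 bp of one.

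Sequence was compared next, since the rule did not use it. Insv sites were rarer in members than in IDR peaks as a whole, but not than in the weakest IDR peaks. An Insv site lay within 50 bp of 27 member summits (2.08%, Wilson 95% interval 1.44 to 3.01%), of 6.42% of IDR summits, 0.953% of the others and 0.456% of low-ranked regions, and of 1.57% of all listed regions. Members minus IDR peaks was −4.33 points (−5.31 to −3.19). The 1296 weakest IDR peaks had an Insv site in 1.16% of cases, and members minus these was 0.926 points (−0.0601 to 1.962). Members exceeded the others by 1.13 points (0.367 to 2.10), and by 0.763 points within bins of rank (−0.141 to 1.67). The first 3 bins held all 27, at 2.80%, 1.56% and 1.59% of members against 1.21%, 0.777% and 0.898% of the others. In the last 2 bins it was 0 of 68 and 0 of 40 members against 1.005% and 0.955% of the others, too few members to read a direction from.

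In the replicate lists, shared and unshared regions had an Insv site in 1.71% and 0.354% of cases in replicate 1, 1.39% and 0.908% in replicate 2, and 1.92% and 0.848% in replicate 3. The difference was 0.972 ± 0.446 points (SD, n = 3; exact sign-flip permutation p = 0.25, adjusted 0.325), positive in 3 of 3. Within bins of a replicate's own rank it was 1.4 (0.552 to 2.24), 0.372 (−0.409 to 1.15) and 1.01 points (0.131 to 1.88). When replicate 3 was left out of the rule the pooled difference fell to 0.278 points (−0.392 to 0.990). The core palindrome alone was at 18 members (1.39%) and 0.508% of the others, a difference of 0.881 points (0.282 to 1.70) that was 0.581 within bins of rank (−0.125 to 1.29), and at 0.386% of the weakest IDR peaks. The degenerate site was at 14 members (1.08%) and 0.604% of the others (0.477 points, −0.0745 to 1.23), and 5 members had both forms.

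Members with an Insv site lay mostly away from promoters. Of the 27, 11 were in introns, 6 were intergenic, 2 were in exons and 8 were at promoters, so an Insv site was under 19 of 564 summits away from promoters (3.37%) and 1.09% of promoter summits. For IDR peaks the shares were 8.87% and 5.13%. The strongest of these members was in an intron of esn, which encodes a LIM-domain protein, at pooled rank 4759 and ranks 5759, 6686 and 3598 in replicates 1, 2 and 3. CG42748 had the core palindrome in an intron 1272 bp from a TSS, at rank 4780 and replicate ranks 3980, 6135 and 5317. CoRest ranked 9480, 4513 and 3344 in the replicates, with replicate 1 far below the others, and Ir92a ranked 4196, 5317 and 5923. lncRNA:CR43969 ranked 8785, 4987 and 4718, again lowest in replicate 1.

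Distances from the summits were compared next. The core palindrome was found within 250 bp of 30 member summits, at a median distance of 34.5 bp, and 19 of the nearest sites (63.3%) were centred within 50 bp. In the others it was near 45 summits at a median of 87.5 bp, with 35.6% within 50 bp, and in IDR peaks near 356 summits at a median of 58 bp. The degenerate site had a median distance of 37 bp at 24 members, 47 bp at 40 of the others and 46 bp at 436 IDR peaks, with 58.3%, 52.5% and 53.2% within 50 bp.

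DREF sites were more frequent in members than in the others. They lay at 47 member summits (3.63%, 2.74 to 4.79%) and at 2.13% of the others, 3.09% of IDR peaks, 0.428% of low-ranked regions and 1.36% of all listed regions. The difference from the others was 1.498 points (0.444 to 2.74), and 1.48 points within bins of rank (0.164 to 2.79). Members were higher in each of the 5 bins, but the last 2 rest on 3 of 68 and 2 of 40 members. In the replicates the difference was 1.57, 0.785 and 1.49 points, or 1.28 ± 0.434 (SD, n = 3; exact sign-flip permutation p = 0.25, adjusted 0.325). Within bins of a replicate's own rank it was 1.33 (0.183 to 2.48), 0.593 (−0.615 to 1.8) and 1.37 points (0.281 to 2.47). Members minus IDR peaks was 0.534 points (−0.502 to 1.78). Without replicate 1 in the rule, the difference from the others was 0.518 points (−0.420 to 1.47).

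M1BP sites were at 33 members (2.55%, 1.82 to 3.55%), 2.03% of the others, 2.76% of IDR peaks, 0.290% of low-ranked regions and 1.20% of all listed regions. The difference from the others was 0.513 points (−0.402 to 1.61), within counting error, and 0.0599 points within bins of rank (−1.09 to 1.21). In the replicates it was 0.458 ± 0.555 points (SD, n = 3; exact sign-flip permutation p = 0.25, adjusted 0.325). Both kinds of site were sites of promoters: 45 of 47 DREF members and 31 of 33 M1BP members were within 500 bp of a TSS. Their shares of member promoter summits were 6.15% and 4.23%, and 4.48% and 4.68% of all 19252 protein-coding TSSs had these sites within 50 bp. No member had both, and none of the 80 members with either had an Insv site.

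At named DREF members, Nup188, a nuclear pore gene, ranked 4846 in the pooled list and 4807, 5743 and 5409 in the replicates. CR14117 ranked 4863, 5901 and 5697, and slgA 5730, 6869 and 6038, so these 3 had like ranks in each list. Rtc1, an RNA cyclase gene, ranked 4144, 9350 and 4272, low in replicate 2. RpL10Ab, a ribosomal protein gene, and BubR1, a spindle checkpoint kinase, also had DREF sites at members. Among M1BP members, hts, the adducin gene, ranked 4766, 5252 and 3744 in the replicates, and CG34195 ranked 7702, 4442 and 4886.

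**Figure D4:**
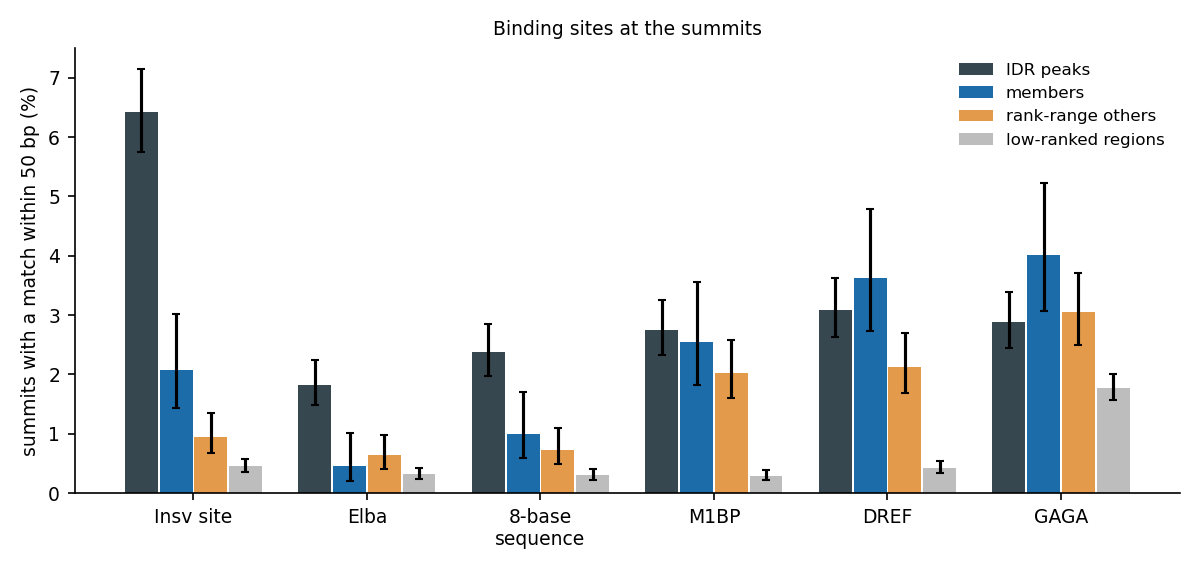
Percentage of summits with a match within 50 bp (y axis) for 6 sites in IDR peaks, members, the others of the rank range and low-ranked regions, with Wilson 95% intervals; the 8-base sequence is CCAATCAG. The Insv site is at 6.42% of IDR peaks, 2.08% of members and 1.16% of the 1296 weakest IDR peaks, which are not drawn. The intervals of DREF (3.63%), M1BP (2.55%) and GAGA (4.01%) in members overlap those of IDR peaks. GAGA is at 2.88% of IDR peaks and 3.395% of the weakest ones.

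The Elba site was at 6 members (0.463%, 0.212 to 1.01%), below the 1.83% of IDR peaks by 1.37 points (members minus IDR peaks −1.37, −1.86 to −0.724), and at 0.636% of the others and 0.613% of all listed regions. Against the weakest IDR peaks, at 0.617%, the difference was −0.154 points (−0.801 to 0.468), within counting error. The members were CG4972, hppy, Rph and rols, with 2 weaker ones. Of these, hppy, a kinase gene, ranked 6074, 5149 and 5668 in the replicates, while rols, a gene of myoblast fusion, ranked 9731, 7974 and 5991. CCAATCAG was chosen because it was frequent under the IDR peaks, at 2.38%. It was at 13 members (1.00%), 0.731% of the others and 0.767% of all listed regions.

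Other sites were described without a contrast of interest. The GAGA repeat GAGAGAG was at 52 members (4.01%) and 3.05% of the others, a difference of 0.962 points (−0.187 to 2.29) that was positive in 1 of 3 replicates, and at 2.58% of all listed regions. It was at 2.88% of IDR peaks, and members were higher by 1.13 points (0.0585 to 2.42), but by 0.617 points (−0.854 to 2.10) against the weakest IDR peaks. The BEAF-32 core was at 20.5% of members and 17.5% of the others, a difference of 3.08 points (0.566 to 5.70) that was positive in 3 of 3 replicates, at 4.19 ± 1.49 points (SD, n = 3; exact sign-flip permutation p = 0.25, adjusted 0.325), and at 14.9% of all listed regions. Within bins of rank the difference was 0.460 points (−2.52 to 3.44). The core counts every DREF site again, as all 47 DREF members show. The Ohler 7 core promoter motif (CAGCNCTA or CAGCNCTG) was at 4.48% of members and 3.15% of the others, 1.33 points higher (0.128 to 2.71) but 0.643 within bins of rank (−0.885 to 2.17), and at 2.58% of all listed regions. The Pho core GCCAT was at 16.5% of members and 17.03% of the others, and at 18.9% of all listed regions.

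For the remaining motifs, member shares are given with those of all listed regions. They were 13.1% and 11.7% for the TATA box (TATAAA), 11.4% and 9.71% for a site close to that of Ibf (ATGTANNT), 9.49% and 9.60% for the Initiator (TCAGTC or TCAGTT), and 6.79% and 5.64% for the proneural E-box (CAGCTG). They were 3.63% and 3.93% for the CTCF core (AGGNGGC), 2.24% and 1.49% for the Ohler 6 motif (GGGTATTT or TGGTATTT), and 1.08% and 0.837% for Zelda (CAGGTAG). The Su(H) site (CGTGAGAA, CGTGGGAA, TGTGAGAA or TGTGGGAA) was at 1.00% and 1.06%, and the Su(Hw) core (TGCATACTT or TGCATATTT) at 0.926% and 0.787%. None of the 19 motifs was within 50 bp of 431 member summits (33.3%).

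The last question was which genes had a member and no IDR peak at their promoters. Members lay within 500 bp of a TSS of 834 protein-coding genes, 79 of which also had an IDR peak. The other 755 genes were 5.41% of 13945 protein-coding genes, while 24.8% of these genes had an IDR peak. Of the 10489 genes without an IDR peak, the 755 were 7.20%. Neighbouring genes can share a member, as Klp3A and Zw10, mRpS24 and Apc2, and CycC and UQCR-C1 do. The lists of genes below are set beside the 5.41% as a description.

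Genes of development held several members. Of 24 segmentation genes, 5 (20.8%) had a member and no IDR peak, and 6 had an IDR peak. The 5 were hry, the pair-rule repressor, cad, a posterior homeodomain factor, Kr, a gap gene, oc, a head gap gene, and run, a pair-rule factor. A further 9 of the 24 had only an unshared region of the rank range, as did 9.645% of all protein-coding genes. For hry the rank was 5030 in the pooled list and 7996, 3960 and 5609 in the replicates. The ranks of cad were 4513, 6567 and 5754, those of Kr 8754, 5831 and 7086, and those of oc 4424, 5430 and 6459. Replicate 1 thus placed hry and Kr lowest, and cad and oc highest. These 4 summits were 38 to 291 bp from a TSS.

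Of 26 core genes of the Notch pathway, 3 (11.5%) had a member and no IDR peak, and 14 had an IDR peak. The 3 were kuz, the protease that cleaves the Notch receptor, Su(H), the DNA-binding factor of the pathway, and H, its corepressor partner. A further 7 of the 26 had only an unshared region of the rank range, as did 9.645% of all protein-coding genes. The member at kuz (chr2L:13549986-13550495) ranked 4941, with replicate ranks of 3680, 6337 and 5632. The member at Su(H) (chr2L:15039324-15039833) ranked 5239, with 5948, 5012 and 4603, and that at H (chr3R:20621720-20622229) ranked 6564, with 8188, 8059 and 5167, and had an M1BP site. Among the E(spl) and Bearded complexes, 12 of 16 genes had an IDR peak and 1 a member alone. That gene was BobA, of the Bearded family, at ranks 9239, 8061 and 7780 in the replicates. No BEN-domain gene had a member: of 7 such genes, 3 had an IDR peak. A list of 7 genes is too short for this absence to be read. The nearest member was 81960 bp from insv, 82969 bp from Elba2, 301720 bp from Elba1 and 304770 bp from Elba3. An IDR peak at pooled rank 57, which the rule leaves out, lay 291 bp from insv and 399 bp from Elba2. The nearest IDR peak was 69898 bp from Elba1 and 72948 bp from Elba3.

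Among 59 genes of signalling pathways, 9 (15.3%) had a member and no IDR peak, and 31 an IDR peak. The strongest were vn, an EGF receptor ligand, htl, an FGF receptor, dome, the JAK/STAT receptor, and dsh, a transducer of Wnt signals. The member at htl ranked 4890 in the pooled list and 3949, 3861 and 3691 in the replicates, so each replicate placed it higher. The ranks of vn were 4904, 4561 and 5887, those of dome 3325, 7870 and 5096, and those of dsh 8570, 6204 and 5713. Of 8 Hox genes, Ubx had a member 5 bp from a TSS (chr3R:16734166-16734675) at pooled rank 4795 and replicate ranks 8773, 4302 and 4093, and 3 had an IDR peak. Of 22 proneural and neuroblast genes, 2 (9.09%) had a member alone, the zinc finger gene scrt (6722, 5506 and 4088) and the Sox gene SoxN (9233, 3438 and 5661). A further 8 of the 22 had only an unshared region of the rank range, against 9.645% of all protein-coding genes. Replicate 1 ranked Ubx, scrt and SoxN lowest. Of 28 mesoderm and muscle genes 1 had a member alone, the actin gene Act87E, at like ranks of 5508, 5206 and 5201.

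Chromatin and transcription genes followed. Of 36 Polycomb and trithorax group genes, 4 (11.1%) had a member and no IDR peak: Pc, which binds methylated histone H3, Bap170, a subunit of a Brahma complex, kis, a chromodomain remodeller, and Asx, a partner of a histone deubiquitinase. Pc ranked 5655 in the pooled list and 6419, 5197 and 6893 in the replicates. Of 29 Mediator genes 4 (13.8%) did, with skd, MED1 and MED14 beside CycC, which shares its member with UQCR-C1. Of 20 insulator and architectural genes none had a member, and 11 had an IDR peak. Beside 5.41% of all genes, a list of 20 is too short for this absence to be read.

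Genes of the cell cycle were also found. Of 28 mitotic spindle and centrosome genes, 5 (17.9%) had a member and no IDR peak, among them Cenp-C, a kinetochore protein, Zw10 and BubR1, of the spindle checkpoint, and Klp3A, a kinesin. The member at Cenp-C ranked 4844 in the pooled list and 4978, 5226 and 4107 in the replicates, whereas the one at Klp3A and Zw10 ranked 9986, 8447 and 4285. Of 33 cell cycle genes 3 (9.09%) did, CycC, fzr, an activator of the anaphase-promoting complex, and Wee1, a kinase that restrains Cdk1. Of 29 DNA replication genes 2 (6.90%) did, geminin, which blocks relicensing of origins, and Orc3, an origin recognition subunit. Of 17 germline genes ovo alone did, at ranks 6052, 6499 and 5240.

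In lists of housekeeping genes the share with a member and no IDR peak ran from 0 to 8.33%, beside 5.41% of all genes. A member without an IDR peak was found at 4 of 88 cytosolic ribosomal protein genes (4.55%), of which 71 had an IDR peak, and at 5 of 75 mitochondrial ribosomal protein genes (6.67%). It was found at 7 of 94 respiratory chain genes (7.45%), 4 of 48 proteasome genes (8.33%), 2 of 44 translation initiation factors (4.55%) and 1 of 33 aminoacyl-tRNA synthetases (3.03%), and at none of 33 vacuolar proton pump genes. The 4 cytosolic ribosomal genes were RpL10Ab, RpS24, RpL35 and RpS6. RpL10Ab ranked 2885, 5479 and 6602 in the replicates, highest in replicate 1. Rpn11 and Rpn3, of the proteasome lid, were also highest in replicate 1, at 2820 and 2569, against 5808 and 9825 in replicate 2 and 7549 and 9656 in replicate 3. The respiratory genes included ATPsynE (4652, 5175 and 3910), ND-13A, ND-13B and ND-24, and the mitochondrial ribosomal genes mRpS26, mRpL18, mRpS24 and mRpL10. The others named by the rule were Prosalpha7, Rpn1, eIF3d1, eIF3b and CysRS.

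Several lists held no members, while 5.41% of all protein-coding genes had a member and no IDR peak. There were none at 179 chemoreceptor genes, 121 cuticle protein genes, 111 histone genes, 27 serine protease genes or 25 neuronal function genes. Beside that share, the lists of 27 and 25 genes are too short for the absence to be read. IDR peaks lay at 2 of the chemoreceptor genes and 3 of the neuronal function genes, and at none of the other 3 lists. Of the 25 neuronal function genes, 5 had only an unshared region of the rank range, against 9.645% of all protein-coding genes. Histone genes are near-identical copies, on which reads can be hard to place singly. How reads were placed there is unknown and was not tested, so the histone count says little.

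**Figure D5:**
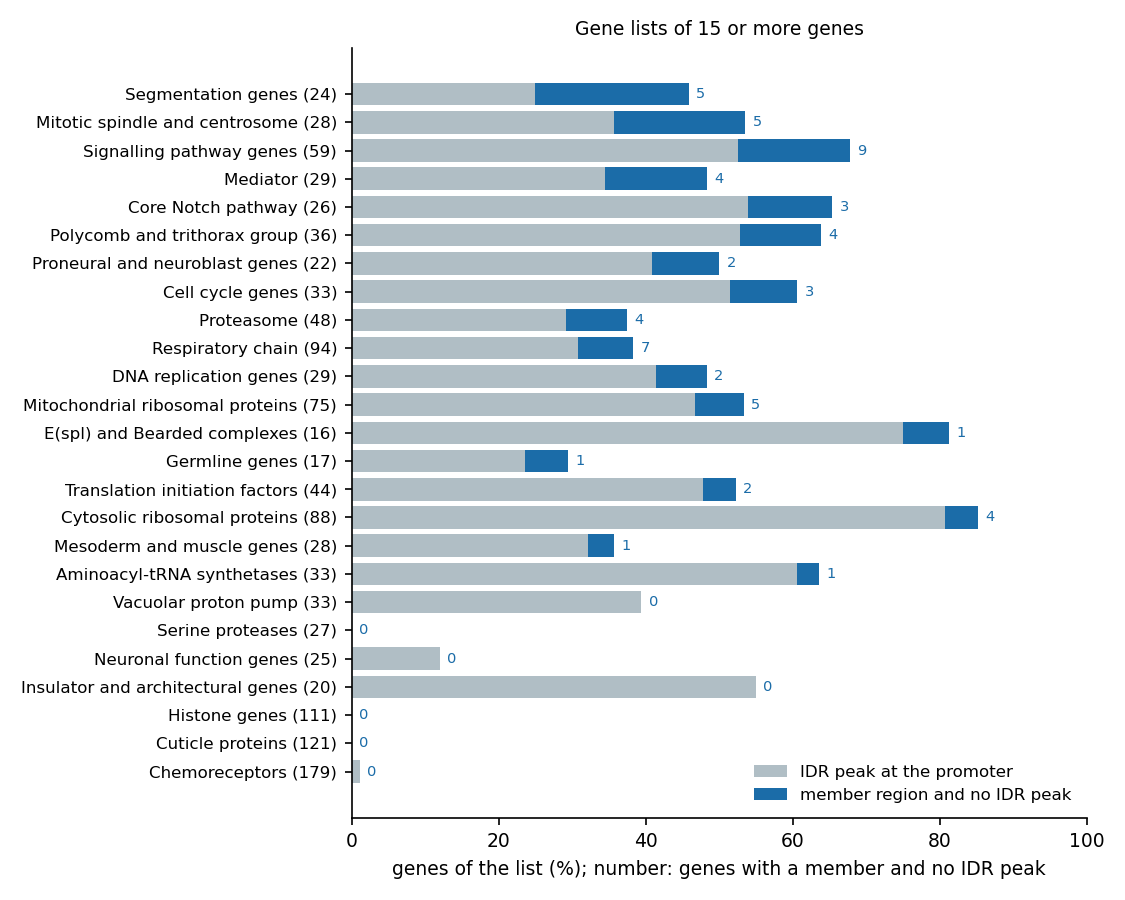
Percentage of genes in each list of 15 or more genes (list size in brackets) with an IDR peak at the promoter (grey) and, stacked on it, with a member region and no IDR peak (blue, number of genes printed). Segmentation genes have the largest blue share, 5 of 24 or 20.8%, against 5.41% of all protein-coding genes, and 9 more of the 24, not drawn, had only an unshared region of the rank range.

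The 20 strongest members ranked from 4756 to 4789 in the pooled list, and 9 of them were at promoters. Those at promoters included Mt2, a tRNA methyltransferase gene, lilli, a transcription elongation factor, rnh1, an RNase H gene, Galk, the galactokinase gene, ind, a homeodomain factor of the neural columns, and beat-IIIc, an axon guidance family gene, together with CG4360, CG7044 and CG13698. Mt2 ranked 4776, 6509 and 4836 in replicates 1, 2 and 3, ind 7278, 4542 and 4538, and Galk 5760, 3679 and 5416. Away from promoters the nearest genes were chic, the profilin gene, with a member in its intron 2689 bp from a TSS, ed, a cell adhesion gene, hebe, esn, CG42748, and Tom of the Bearded family, whose TSS was 8642 bp away. The member nearest to mir-4941 lay in an intron of Notum, a secreted inhibitor of Wnt signals, and the rest were nearest to lncRNA:CR32218, lncRNA:CR32773, lncRNA:CR43431 and asRNA:CR46050.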

How the data were processed

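ChIP-seq of Insv-GFP in 3 biological replicates of 0 to 24 h embryos was deposited as lists of 30000 regions per replicate on dm6, a pooled list made from the 3 alignments and a control alignment, and an IDR list, per the file headers of the deposited readme texts. Each list gives the authors' signal value per region, on a scale that is not stated. The deposited lists also give the −log10 of a q-value, and the offset of the summit, in bp counted from where a region begins. The sources used here do not give the aligner, the peak caller, the IDR threshold or the read depths. The samples are labelled biological replicates, but no label says that they came from separate embryo collections, so their spread may be technical. The deposited lists on dm3 were used for 1 alternative.

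The values were used as ranks within a list. Summits were annotated with the Ensembl 115 gene models (BDGP6.54, dm6), with 13945 protein-coding genes and 23998 TSSs. A promoter was 500 bp either side of a TSS, and motifs were matched to either strand at most 50 bp from the summit in the RefSeq Release 6 genome. The Y chromosome was left out. Shares have Wilson and differences Newcombe 95% intervals, and differences within bins are Mantel-Haenszel differences. These intervals cover counting error only, and overlapping or neighbouring regions are not independent. Contrasts were repeated in each replicate list and tested with an exact two-sided sign-flip permutation test. The code was tested on simulated data, in Python 3.11.15 with scipy 1.17.1, pandas 2.3.3 and numpy 2.4.6, and figures were drawn with matplotlib 3.10.9.

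The members, the gene lists, the motifs and the tests were chosen with earlier results of these data known, and CCAATCAG was taken from them. Genes were named by rule: those nearest to the 20 highest members, up to 4 per gene list in order of pooled rank, up to 4 members per Insv, Elba, M1BP or DREF site, and insv with the Elba genes. The gene run and the members at the ends of the rank range were named beside these after their values were seen. Alternatives changed the replicate cut-off, the summit distance, the windows, the rank range and the replicates used. The comparison within bins of rank and that away from promoters were chosen after seeing the data.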

Additional observations from a re-analysis of the deposited data

How the results depend on the processing

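The number of members depended on the cut-offs: it was 592 with the 8000 highest regions of each replicate list, 1958 with the 12000 highest, 786 with replicate summits within 100 bp, and 1706 to 2231 when a replicate was left out. On dm3, whose list for replicate 1 is shorter, it was 904. The promoter difference between members and others (7.26 points) was positive under all 15 alternatives, and its interval held 0 with summits within 100 bp (2.7), at ranks up to 7000 (0.807) or beyond (3.4) and within bins of rank (0.232). It was 4.58 to 8.71 when a replicate was left out. The Insv site difference (1.13 points) was positive under all 17, and its interval held 0 with the 8000 highest regions (0.664), beyond rank 7000 (0.0544), with a window of 25 bp (0.318), at promoters (0.512) and within bins (0.763). It was 0.278 to 0.934 when a replicate was left out, and its interval held 0 without replicate 3. The M1BP difference (0.513 points) turned to −0.0682 with the 12000 highest regions, and its interval lay above 0 with the 8000 highest (1.38) and a window of 250 bp (1.79). It was 0.206 to 0.357 when a replicate was left out. The DREF difference (1.5 points) was positive under all 16, and its interval held 0 with summits within 100 bp (0.902) and at ranks up to 7000 (1.24) or beyond (1.66). It was 0.518 to 1.26 when a replicate was left out, and its interval held 0 without replicate 1. The causes were not tested. Of 9 further contrasts, the core palindrome, BEAF-32, Ohler 7 and divergent differences had intervals above 0 that came to hold 0 within bins of rank. No paired analysis between groups of samples was possible because the study has a single group. The replicate tests used the difference between shared and unshared regions within each list. Read depth is unknown, and sites at under 4% of members rest on few regions.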

Other observations

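Regions of the rank range held by exactly 2 replicates numbered 2071, and 51.7% of their summits were at promoters, while of the 1076 regions held by 1 replicate or none 44.5% were. An Insv site was under 0.821% of the former and 1.208% of the latter, and the core palindrome under 8 summits of each, or 0.386% and 0.744%, so neither share was higher with 2 replicates than with fewer. On dm3, the same rule with that build's 5326 IDR peaks left 3863 regions, of which 904 (23.4%) were members.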
